A study of Homo sapiens with 8 samples.

Results

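RNA of the nilotinib-resistant population of KCL-22 cells was set beside RNA of the imatinib-resistant population, with 1 library on each side. KCL-22 is a human line from a chronic myeloid leukemia in blast crisis and depends on BCR-ABL, a fusion kinase. Its cells carried ClonTracer barcodes, DNA tags brought in by lentivirus that mark descent from single cells, and the number of lineages that each resistant population still held was not analysed here. The nilotinib population had been kept in 0.3 µM nilotinib for 27 days, and the imatinib population in 2.5 µM imatinib for 27 days. The time was the same and the doses differed, so the drug, its dose and the cells that grew out under it cannot be told apart. A GNF-2-resistant population (2.5 µM, 21 days), a vehicle population (0.1% DMSO, 7 days) and 4 resistant clones, 1 library each, are given beside these values where they bear on a gene. By the sample grouping Clones 1 and 2 are GNF-2 clones and Clone 3 is a clone of imatinib origin. Clone 4 is grouped as a clone of GNF-2 origin that is resistant to all the inhibitors. A value under nilotinib or under imatinib is that of the population kept in that drug. Genes entered the comparison when the higher of the nilotinib and imatinib libraries reached 5 FPKM, a fragment count scaled to transcript length and to the library's total, which 9315 of 23470 genes with an Entrez identifier did. Of these, 9277 were above 0 in both libraries and 38 were listed at 0 in 1 of them. At the edge of this minimum, E2F8 stayed out with 4.999 FPKM in the nilotinib population and 4.68 FPKM in the imatinib population, and WDR53 entered with 5.001 FPKM under nilotinib against 3.67 under imatinib.

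Imatinib and nilotinib both bind the ATP site of ABL in its inactive form. Nilotinib was designed from imatinib: it keeps the pyridine, pyrimidine and aminophenyl portion, and carries a trifluoromethyl phenyl ring with a methylimidazole in place of imatinib's methylpiperazine end. GNF-2 binds elsewhere, in the myristate pocket of the kinase. In chronic myeloid leukemia cells BCR-ABL drives RAS and MAPK signalling, PI3K signalling and STAT5, and its output includes MYC, the SOCS feedback genes and the uptake and use of sugar. Interferon, amino acid supply and oxygen each act on their own sets of genes, through STAT and IRF factors, through ATF4 and through HIF.

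Rough depth estimates were 32100000 fragments for the nilotinib population and 35700000 for the imatinib population. At these depths a transcript of 2 kb at 5 FPKM had about 321 fragments in the nilotinib population (a counting SD of 5.59%) and 357 in the imatinib population (5.29%). This is counting error only: with 1 library a side there is no replicate check, and no test was run. Of 6 myeloid progenitor markers, 3 exceeded 1 FPKM in the nilotinib population and 4 in the imatinib population. CEBPA, a factor of granulocyte precursors, had 19.5 FPKM under nilotinib against 11.3 under imatinib, while KIT (0.00524 FPKM under nilotinib against 0 under imatinib) and MPO (0.0362 FPKM under nilotinib against 0.161 under imatinib) were nearly absent, so the myeloid label rests on part of its markers. The 6 erythroid, 5 fibroblast and 3 endothelial markers were all under 1 FPKM in both libraries. In other marker sets some genes were at 0 in both (HBB, MS4A1, PAX5, CD2 and FCER1A) and others were abundant. The histidine decarboxylase HDC of mast cells had 519 FPKM under nilotinib against 455 under imatinib, NKG7 of cytotoxic lymphocytes 272 FPKM under nilotinib against 119 under imatinib, CD79A of B cells 90.8 FPKM under nilotinib against 17.4 under imatinib and the platelet gene GP9 46.4 FPKM under nilotinib against 22.5 under imatinib. The macrophage gene CD68 had 36.5 FPKM under nilotinib against 36.6 under imatinib, and the epithelial keratin KRT18 had 32.1 FPKM under nilotinib against 29.9 under imatinib. Less abundant members of these sets went either way. CD3D (1.94 FPKM under nilotinib against 5.23 under imatinib), ITGA2B (0.317 against 0.821) and TPSAB1 (2.11 against 2.54) were lower. CD14 (9.20 FPKM under nilotinib against 4.13 under imatinib), CSF1R (6.32 against 4.18) and GP1BA (1.17 against 0.254) were higher. The part of these markers in the results was not tested.

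The populations were alike for most genes and differed more often upwards than downwards. Of 9277 genes, the middle 80% had log2 ratios of nilotinib over imatinib between -0.37 and 0.47, and the SD of the ratio was 0.43. At least 2-fold apart were 298 genes (3.21%): 232 were higher (2.5%) and 66 lower (0.711%) in the nilotinib population, although over all genes 4629 were higher and 4648 lower. At least 4-fold apart were 30 higher and 14 lower genes. In the scatter of both libraries the differing genes lay mainly at low and middle levels: with the genes in 5 equal groups by level, 86 of the 232 higher genes were in the lowest group and 28 in the highest.

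**Figure D1:**
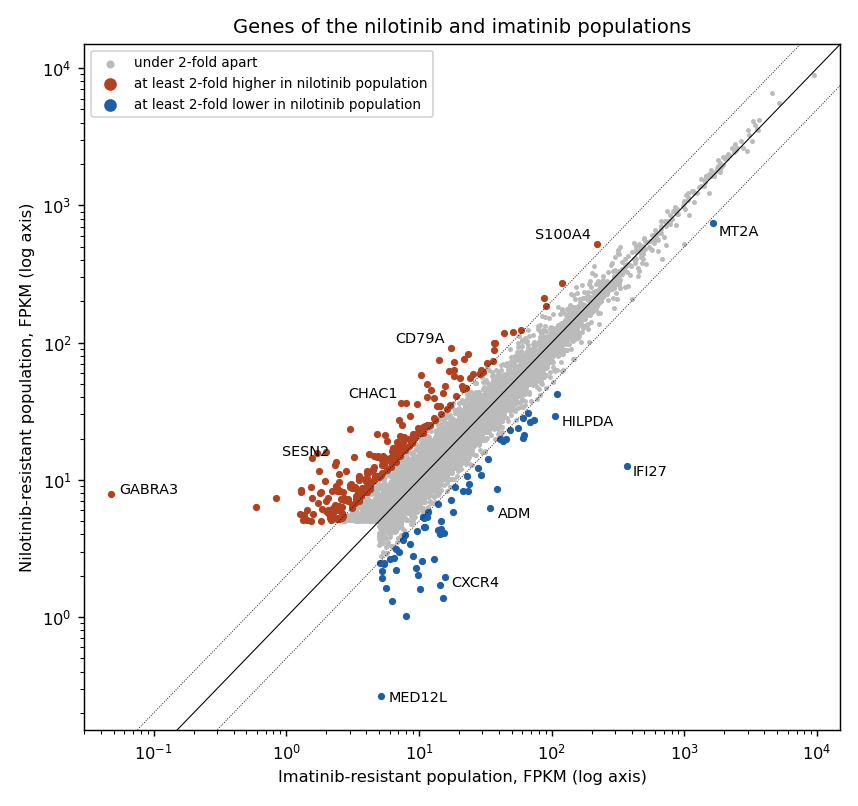
Each point is 1 of 9277 genes, with its FPKM in the nilotinib population on the y axis and in the imatinib population on the x axis, both log axes. The solid line marks equal levels and the dotted lines 2-fold: 232 genes lie on or above the upper line and 66 on or below the lower one, with IFI27 (12.6 FPKM under nilotinib against 366 under imatinib) and GABRA3 (7.83 FPKM under nilotinib against 0.0478 under imatinib) the farthest out.

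The excess of higher genes went with GC content. With the genes in 5 equal groups by GC content, 13 genes were at least 2-fold higher and 9 lower in the lowest group (29.6% to 40.6% GC), and in the highest (58.2% to 83.9% GC) 95 were higher and 16 lower. The Spearman correlation of ratio and GC content over 9247 genes, which share both libraries, was 0.206, given as a description. With the trend on GC content and transcript length removed, an alternative added after seeing the data, 208 genes were higher and 71 lower. With it, 36 of 37 list medians moved by at most 0.1: that of the amino acid response genes was 0.76, that of the interferon-stimulated genes -0.46, that of the MAPK feedback genes 0.14 and that of the MHC class I genes -0.11. The median of the drug transporters was -0.10 with the trend removed and 0.03 without. Of 72 named genes 2-fold apart 3 then were not: ECM1 (log2 ratio 0.98), GP9 (0.86) and PHLDA1 (-0.96).

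**Figure D2:**
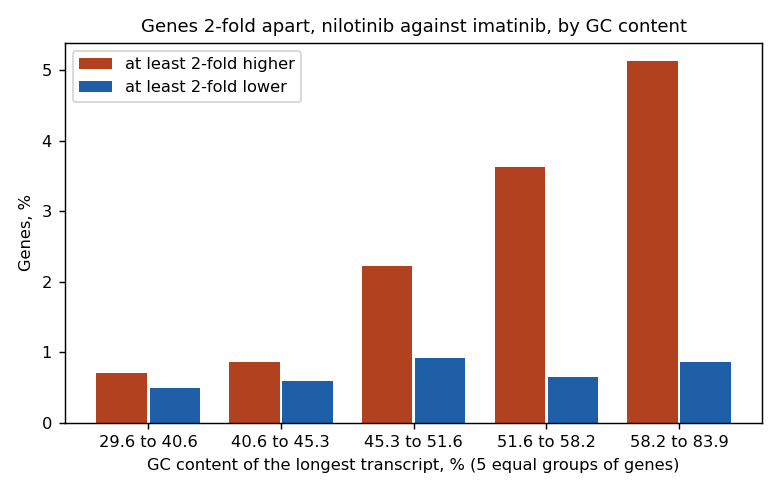
Bars give the percent of genes at least 2-fold higher (red) and at least 2-fold lower (blue) in the nilotinib population, for 5 equal groups of 9247 genes by GC content of the longest transcript. The share of higher genes runs from 0.703% in the lowest group to 5.14% in the highest, and the share of lower genes stays between 0.486% and 0.919%.

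Interferon-stimulated genes, the antiviral set that STAT2 and IRF9 help turn on, were mostly lower in the nilotinib population. Of 45 listed genes 40 reached 5 FPKM; 36 of these were lower and 4 higher, with a median log2 ratio of -0.49, against -0.00 over all 9277 genes. IFI27, OASL and OAS1 were at least 2-fold lower, beside 0.711% of all genes, and none of the 40 was at least 2-fold higher. IFI27, a small mitochondrial protein induced by type I interferon (chromosome 14, 94577079 to 94583033, GRCh37), had 12.6 FPKM in the nilotinib population and 366 FPKM in the imatinib population, a log2 ratio of -4.86, the lowest among the 9277 genes. The other libraries spread over the whole range, with 113 FPKM in the GNF-2 population, 82.5 FPKM in vehicle, and 2.22, 197, 18.0 and 1957 FPKM in Clones 1 to 4. The nilotinib population was thus below vehicle and the imatinib population above it, and the clones lay on both sides of each.

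The remaining interferon genes were closer together. OASL, an oligoadenylate synthetase-like RNA sensor cofactor, had 3.41 FPKM under nilotinib against 8.58 under imatinib, and OAS1, which makes the messenger that activates RNase L, had 19.9 FPKM under nilotinib against 41.0 under imatinib. Just inside 2-fold were IRF7 (27.1 FPKM under nilotinib against 54.1 under imatinib), the ubiquitin-like ISG15 (76.3 FPKM under nilotinib against 148 under imatinib) and OAS3 (19.998 FPKM under nilotinib against 37.4 under imatinib). STAT2 and IRF9, which carry the interferon signal, were lower as well: STAT2 had 25.1 FPKM under nilotinib against 32.1 under imatinib, and IRF9 had 18.6 FPKM under nilotinib against 27.6 under imatinib. The 4 higher members were TRIM22, ISG20, IFITM2 and IFI30, the last a lysosomal thiol reductase with 65.4 FPKM under nilotinib against 32.8 under imatinib. IFIT5, MX1, MX2, HERC6 and SAMD9 stayed under 5 FPKM in both, at up to 4.46 FPKM in the nilotinib population and 4.77 FPKM in the imatinib population. The median over the 40 genes was -0.07 for nilotinib over vehicle and 0.39 for imatinib over vehicle, which share the vehicle library. In the GNF-2 population, which neither side of the main comparison includes, 35 of the 40 were above vehicle, with a median of 0.52. MHC class I and peptide-loading genes did not follow: 5 of 16 were higher and 11 lower, none 2-fold, with a median of -0.05.

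The promoters of these genes were searched for the interferon-stimulated response element, written as GAAA, any 2 bases and GAAA again, on both strands. The window ran from 250 bases before to 50 bases after each start in RefSeq (GRCh38.p14). Of 31 list genes with a matched promoter 21 held the element in any of their windows (67.7%). It stood in 3.57% of all 35116 promoters, counted by window. By gene, it stood in 3.85% of the 7635 matched genes of the comparison. The 21 genes with it had a median log2 ratio of -0.60 and the 10 without it -0.19. List genes without a matched promoter are in neither median. Of IFI27, OAS1 and OASL, all at least 2-fold lower, only IFI27 had a match: OAS1 had none, and OASL had no matched promoter. A match is a description of letters and not a mapped site. IFI27, farthest apart, and IFI6, one of the most abundant members (136 FPKM in the nilotinib population, 228 in the imatinib population, 373 in the GNF-2 population and 149 in vehicle), are shown 5′ to 3′ with each match in capitals. In IFI27 the matches begin 108 and 95 bases before the start, the first on the reverse strand, and in IFI6 156, 115 and 93 bases before it.
IFI27 promoter, chr14:94110486-94110785, plus strand: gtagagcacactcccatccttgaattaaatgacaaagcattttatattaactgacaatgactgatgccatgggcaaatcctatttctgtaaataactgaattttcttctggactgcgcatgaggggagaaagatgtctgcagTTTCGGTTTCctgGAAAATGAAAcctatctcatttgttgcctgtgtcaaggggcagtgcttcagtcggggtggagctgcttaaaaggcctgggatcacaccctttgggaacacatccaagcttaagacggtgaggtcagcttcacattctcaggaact
IFI6 promoter, chr1:27672143-27672442, minus strand: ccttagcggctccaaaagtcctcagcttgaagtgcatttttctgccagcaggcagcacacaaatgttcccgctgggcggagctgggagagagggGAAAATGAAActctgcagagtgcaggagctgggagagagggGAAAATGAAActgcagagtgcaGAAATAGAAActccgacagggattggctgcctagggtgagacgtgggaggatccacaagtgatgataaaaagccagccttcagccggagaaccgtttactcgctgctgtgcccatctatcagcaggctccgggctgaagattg

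Genes of the amino acid response were mostly higher in the nilotinib population. This set is switched on by ATF4 when amino acids run short or the endoplasmic reticulum is stressed, and covers transcription factors, serine and asparagine synthesis and amino acid transporters. Of 31 listed genes 29 reached 5 FPKM; 26 were higher and 3 lower, with a median log2 ratio of 0.77. At least 2-fold higher were 9 (SESN2, CHAC1, SLC7A11, CEBPB, ATF3, ATF5, STC2, PSPH and CEBPG), against 2.5% of all genes, and none was 2-fold lower. CTH and NUPR1 stayed under 5 FPKM. ATF4 itself, whose activity is set mainly by translation, had 503 FPKM under nilotinib against 429 under imatinib, a log2 ratio of 0.23.

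SESN2, a stress-induced inhibitor of mTORC1 on chromosome 1 (28585963 to 28609002, GRCh37), had 13.6 FPKM in the nilotinib population and 2.38 FPKM in the imatinib population. CHAC1, which breaks down glutathione (chromosome 15, 41245636 to 41248717, GRCh37), had 36.0 FPKM in the nilotinib population and 7.91 FPKM in the imatinib population. Both genes split the 8 libraries the same way: the imatinib population, vehicle (3.75 and 5.93 FPKM) and Clone 2 (2.86 and 8.08) were low, and the GNF-2 population (13.8 and 33.1) and Clones 1, 3 and 4 were high, at 10.6 to 11.05 FPKM for SESN2 and 33.1 to 54.0 FPKM for CHAC1. SLC7A11, the cystine importer, had 6.26 FPKM under nilotinib against 2.23 under imatinib and the same split, with 2.37 FPKM in vehicle and 12.1 FPKM in the GNF-2 population. ATF3, a repressor induced by stress, had 24.6 FPKM under nilotinib against 11.1 under imatinib, and CEBPB, a partner of ATF4, had 23.8 FPKM under nilotinib against 9.75 under imatinib. ATF5 (24.5 FPKM under nilotinib against 11.6 under imatinib) was near its vehicle level of 22.3 in the nilotinib population. STC2 (22.3 FPKM under nilotinib against 10.7 under imatinib) was below its vehicle level of 25.8 FPKM in both.

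Apart from SLC7A11, CHAC1 and PSPH (16.4 FPKM under nilotinib against 7.87 under imatinib), the transporters and enzymes of the list were under 2-fold apart. The neutral amino acid transporter SLC1A5 had 225 FPKM in the nilotinib population and 139 FPKM in the imatinib population, and SLC3A2, the shared heavy chain of several transporters, had 156 FPKM under nilotinib against 83.8 under imatinib. PSAT1 of serine synthesis had 108 FPKM under nilotinib against 63.0 under imatinib and asparagine synthetase ASNS had 58.4 FPKM under nilotinib against 38.5 under imatinib, while SHMT2 (102 FPKM under nilotinib against 102 under imatinib) and ALDH18A1 (61.9 FPKM under nilotinib against 62.6 under imatinib) were level. The tRNA synthetases, several of them ATF4 targets, had a median of 0.11 with 11 of 17 higher and none 2-fold. Highest of these was MARS, with 42.6 FPKM under nilotinib against 24.7 under imatinib; its entry overlaps that of DDIT3 (36.1 FPKM under nilotinib against 20.1 under imatinib), a stress gene of the ATF4 list. For the 29 genes the median was 0.16 for nilotinib over vehicle and -0.45 for imatinib over vehicle, which share the vehicle library. In the GNF-2 population 26 of 29 were above vehicle, with a median of 0.69.

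The binding sequence of ATF4 with a C/EBP partner was searched as TGATGNAA on both strands of the same windows. Of 23 list genes with a matched promoter 8 held it (34.8%). It stood in 3.62% of all promoters and in 2.51% of the matched genes of the comparison. The 8 genes with it had a median log2 ratio of 0.86 and the 15 without it 0.53. Of the genes at least 2-fold higher, CHAC1, ATF3 and CEBPG had a match. SESN2, the farthest apart of the list, CEBPB, ATF5 and STC2 had none, and SLC7A11 and PSPH had no matched promoter. The promoters of CHAC1, ATF3 and CEBPG are shown with the match in capitals, beginning 209, 191 and 42 bases before the start. In CHAC1 it is read on the reverse strand.
CHAC1 promoter, chr15:40953221-40953520, plus strand: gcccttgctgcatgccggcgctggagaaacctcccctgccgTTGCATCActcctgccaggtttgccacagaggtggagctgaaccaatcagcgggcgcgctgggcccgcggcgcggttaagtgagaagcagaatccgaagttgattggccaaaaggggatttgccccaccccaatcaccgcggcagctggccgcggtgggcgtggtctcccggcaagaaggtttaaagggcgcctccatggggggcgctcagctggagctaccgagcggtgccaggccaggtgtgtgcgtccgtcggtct
ATF3 promoter, chr1:212565157-212565456, plus strand: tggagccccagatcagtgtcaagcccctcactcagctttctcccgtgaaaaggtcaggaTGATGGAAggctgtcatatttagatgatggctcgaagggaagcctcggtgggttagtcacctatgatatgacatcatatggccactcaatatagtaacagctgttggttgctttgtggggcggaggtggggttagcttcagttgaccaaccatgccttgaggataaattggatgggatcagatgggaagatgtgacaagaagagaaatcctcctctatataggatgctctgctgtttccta
CEBPG promoter, chr19:33373863-33374162, plus strand: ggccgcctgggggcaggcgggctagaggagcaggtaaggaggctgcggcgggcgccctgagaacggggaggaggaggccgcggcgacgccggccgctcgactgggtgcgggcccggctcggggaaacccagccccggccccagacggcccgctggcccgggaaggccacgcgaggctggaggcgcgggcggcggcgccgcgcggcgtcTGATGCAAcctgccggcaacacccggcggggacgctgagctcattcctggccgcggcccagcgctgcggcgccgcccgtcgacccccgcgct

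Glycolysis and hypoxia genes, driven in part by HIF and in part by BCR-ABL and MYC, were mostly lower in the nilotinib population. Of 37 listed genes 35 reached 5 FPKM; 29 were lower and 6 higher, with a median of -0.20, and 4 were at least 2-fold lower, beside 0.711% of all genes. Adrenomedullin (ADM), a vasodilator peptide on chromosome 11, had 6.21 FPKM under nilotinib against 34.5 under imatinib, with 2.23 FPKM in the GNF-2 population, 108 FPKM in vehicle, and 2.13, 23.9, 31.8 and 3.10 FPKM in Clones 1 to 4. ANKRD37 had 21.1 FPKM under nilotinib against 61.8 under imatinib, and carbonic anhydrase CA9, which acidifies the medium, had 8.32 FPKM under nilotinib against 23.4 under imatinib. The glycolytic regulator PFKFB3 had 28.1 FPKM under nilotinib against 60.6 under imatinib. In the imatinib population ANKRD37 was at its vehicle level (61.6 FPKM), while ADM, CA9 (93.8 FPKM in vehicle) and PFKFB3 (111 FPKM in vehicle) were below it.

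Glucose uptake genes were lower without reaching 2-fold, and several abundant enzymes were nearly level. The glucose transporter SLC2A1 had 76.0 FPKM under nilotinib against 144 under imatinib and hexokinase HK2 had 179 FPKM under nilotinib against 293 under imatinib. Lactate dehydrogenase LDHA had 1241 FPKM under nilotinib against 1543 under imatinib, GAPDH had 8982 FPKM under nilotinib against 9490 under imatinib, ENO2 had 325 FPKM under nilotinib against 329 under imatinib and VEGFA had 107 FPKM under nilotinib against 108 under imatinib. PGK1, PFKFB4 and P4HA2 were among the 6 higher genes, with ratios up to 0.41. Beside vehicle, 34 of 35 genes were lower in the nilotinib population (median -0.48) and 28 in the imatinib population (median -0.21). All 35 were below vehicle in the GNF-2 population (median -0.95).

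The hypoxia response element was searched as ACGTGC on both strands. Of 31 list genes with a matched promoter 13 held it (41.9%). It stood in 6.89% of all promoters and in 12.01% of the matched genes of the comparison. The 13 genes with it had a median of -0.49 and the 18 without it -0.14. Of the genes at least 2-fold lower, CA9 and ANKRD37 held it. ADM, the farthest apart of the list, and PFKFB3 had a matched promoter without it. The promoters of CA9 and ANKRD37 are shown with the match in capitals. It begins 19 bases before the start in CA9, on the reverse strand, and 161 and 143 bases before the start in ANKRD37.
CA9 promoter, chr9:35673678-35673977, plus strand: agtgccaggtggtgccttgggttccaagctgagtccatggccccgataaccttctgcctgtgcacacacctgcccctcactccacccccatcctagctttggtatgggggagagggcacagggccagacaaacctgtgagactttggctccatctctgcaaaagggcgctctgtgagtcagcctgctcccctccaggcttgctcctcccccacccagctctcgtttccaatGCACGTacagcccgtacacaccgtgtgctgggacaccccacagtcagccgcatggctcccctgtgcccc
ANKRD37 promoter, chr4:185396591-185396890, plus strand: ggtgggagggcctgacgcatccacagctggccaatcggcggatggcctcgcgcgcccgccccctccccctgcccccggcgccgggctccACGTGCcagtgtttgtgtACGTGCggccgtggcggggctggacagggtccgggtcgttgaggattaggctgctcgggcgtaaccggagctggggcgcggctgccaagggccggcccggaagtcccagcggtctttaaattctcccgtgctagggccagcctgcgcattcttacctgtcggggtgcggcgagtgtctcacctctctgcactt

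**Figure D3:**
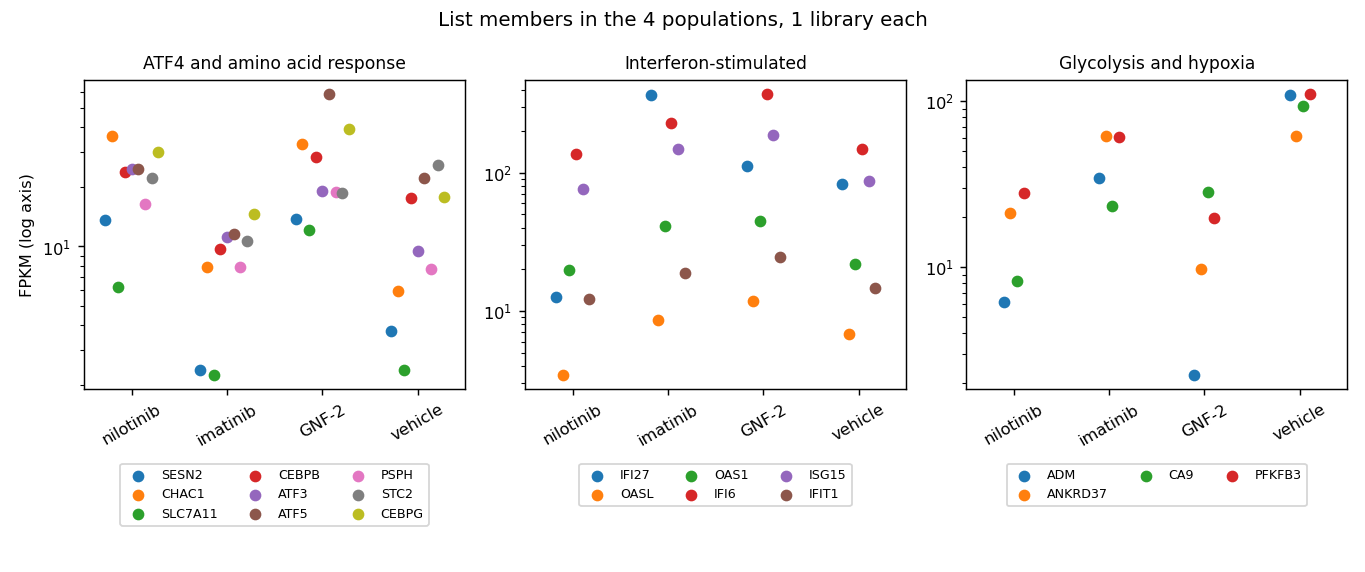
FPKM on a log axis of list members in the nilotinib, imatinib, GNF-2 and vehicle populations, 1 library each, with points of a library spread sideways for legibility. CHAC1 and SESN2 are high under nilotinib and GNF-2 and low under imatinib and vehicle; IFI27 is highest under imatinib (366 FPKM) and lowest under nilotinib (12.6 FPKM); ADM and CA9 are highest in vehicle.

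The genes farthest apart were a mixed set of surface proteins, transcription factors and secreted proteins. GABRA3, a subunit of the GABA-A receptor on the X chromosome (151335634 to 151619831, GRCh37), had 7.83 FPKM in the nilotinib population and 0.0478 FPKM in the imatinib population. It was close to absent in the other 6 libraries too, with 0.147 FPKM in the GNF-2 population, 0.446 FPKM in vehicle and at most 0.0678 FPKM in any clone, so the nilotinib population stood alone. The palmitoyl transferase ZDHHC2 had 15.6 FPKM under nilotinib against 1.72 under imatinib and CPXM1, a carboxypeptidase-like secreted protein, 11.6 FPKM under nilotinib against 1.77 under imatinib. For these 2 genes as well the nilotinib population was the highest of the 8 libraries, the next being vehicle for ZDHHC2 (6.24 FPKM) and the GNF-2 population for CPXM1 (3.65 FPKM).

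Most other genes of this set were higher still in some clone, whereas EEF1A2 and GPR171 were highest in the nilotinib population. CD79A, a signalling chain of the B cell receptor on chromosome 19, had 90.8 FPKM under nilotinib against 17.4 under imatinib, with 30.8 FPKM in the GNF-2 population, 28.6 FPKM in vehicle and 35.7 to 98.9 FPKM in the clones. The other B cell markers MS4A1 and PAX5 were at or near 0 in both. The TNF receptor family member TNFRSF18 had 14.4 FPKM under nilotinib against 1.57 under imatinib, but 68.7 and 82.0 FPKM in Clones 1 and 2. RETN, which encodes resistin, had 58.5 FPKM under nilotinib against 10.3 under imatinib and 21.5 FPKM in vehicle, and the elongation factor EEF1A2 had 75.1 FPKM under nilotinib against 14.2 under imatinib and 35.3 FPKM in vehicle. SIDT1, RASSF2 and GPR35 were higher as well, at 4.98- to 10.7-fold, with GPR171 (15.98 FPKM under nilotinib against 1.98 under imatinib).

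GPR171 lies within MED12L on chromosome 3, and MED12L, a Mediator subunit, went the other way, with 0.268 FPKM in the nilotinib population and 5.17 FPKM in the imatinib population. No source used here says whether the authors' counting used strand, so reads of overlapping genes such as these may be shared. CXCR4, the receptor for the homing chemokine CXCL12 (chromosome 2, 136871919 to 136875725, GRCh37), had 1.94 FPKM under nilotinib against 15.6 under imatinib; vehicle had 53.4 FPKM, the GNF-2 population 1.72 FPKM, Clone 3 18.0 FPKM and the other clones at most 1.35 FPKM. The nuclear receptor NR2F2 had 1.70 FPKM under nilotinib against 14.5 under imatinib, N-cadherin (CDH2) 1.59 FPKM under nilotinib against 10.3 under imatinib, and the adhesion protein CD96 2.63 FPKM under nilotinib against 12.9 under imatinib. For CDH2 the imatinib population and Clone 4 (10.6 FPKM) were high and the remaining 6 libraries were at 1.59 FPKM or under. C1orf186, FAM26F, MYCT1, COL23A1 and the lipid droplet protein HILPDA, a HIF target with 29.1 FPKM under nilotinib against 107 under imatinib, were 3.67- to 10.9-fold lower.

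**Figure D4:**
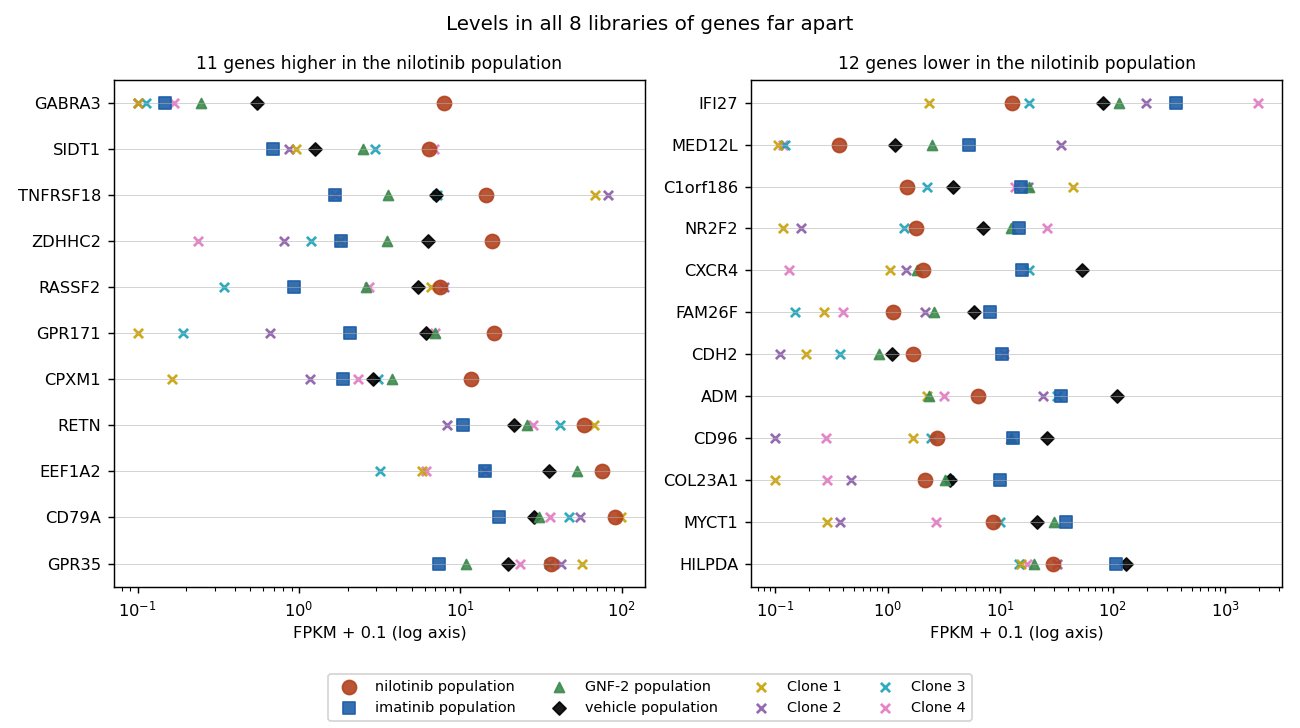
FPKM + 0.1 on a log axis of 11 genes that were higher and 12 that were lower in the nilotinib population, from those farthest apart, in all 8 libraries; circles are the nilotinib population, squares the imatinib population, triangles the GNF-2 population, diamonds vehicle and crosses the 4 clones. GABRA3 at 7.83 FPKM stands apart from the other 7 libraries, whereas clone values of IFI27 reach from 2.22 to 1957 FPKM.

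Among genes of at least 100 FPKM in the higher library, 8 were named as higher. The calcium-binding S100A4 (520 FPKM under nilotinib against 220 under imatinib), the actin-bundling LCP1 (211 FPKM under nilotinib against 88.2 under imatinib), the granule protein NKG7 (272 FPKM under nilotinib against 119 under imatinib), TRIM16 (120.4 FPKM under nilotinib against 50.8 under imatinib), ECM1 (186 FPKM under nilotinib against 90.1 under imatinib), IGFBP7 (124 FPKM under nilotinib against 58.2 under imatinib), NGFRAP1 (118 FPKM under nilotinib against 43.7 under imatinib) and the adaptor SH2D2A (100.01 FPKM under nilotinib against 37.2 under imatinib) made up this group. The entry of SH2D2A overlaps that of another gene, so its reads may be shared. Lower were IFI27, HILPDA, the coregulator PNRC1 (42.1 FPKM under nilotinib against 110.0 under imatinib) and MT2A. Metallothioneins bind zinc and copper: MT2A had 748 FPKM under nilotinib against 1657 under imatinib, MT1X 522 FPKM under nilotinib against 996 under imatinib, and the zinc exporter SLC30A1 30.4 FPKM under nilotinib against 66.7 under imatinib. In vehicle MT2A had 799 FPKM and MT1X 470.4 FPKM. Metallothionein genes are near copies of each other, so their reads may be shared.

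The kinase and its signalling genes were close. ABL1 had 86.6 FPKM in the nilotinib population and 110.5 FPKM in the imatinib population, a log2 ratio of -0.35, and BCR had 91.0 FPKM under nilotinib against 102.4 under imatinib, a ratio of -0.17; neither value separates the fusion transcript from the normal genes. Of 16 BCR-ABL and adaptor genes none was 2-fold apart, with 7 higher, 9 lower and a median of -0.01. The substrate CRKL had 89.5 FPKM under nilotinib against 122 under imatinib and GAB2 24.5 FPKM under nilotinib against 37.4 under imatinib, while the inhibitory adaptor DOK2 had 43.7 FPKM under nilotinib against 24.9 under imatinib. SRC family kinases LYN (81.5 FPKM under nilotinib against 65.7 under imatinib) and FYN (29.6 FPKM under nilotinib against 17.3 under imatinib) were higher without reaching 2-fold. Of the transporters linked to these drugs, ABCB1 had 1.81 FPKM under nilotinib against 0.826 under imatinib and ABCG2 0.0160 FPKM under nilotinib against 0.123 under imatinib, both under 5 FPKM; of 9 transporters above it, none was 2-fold apart.

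STAT5 output differed between its members. Of 14 genes 9 were higher and 5 lower, with a median of 0.49, and 3 were at least 2-fold higher, beside 2.5% of all genes. ID1, an inhibitor of differentiation factors on chromosome 20, had 49.8 FPKM under nilotinib against 11.5 under imatinib, the feedback inhibitor SOCS3 had 19.3 FPKM under nilotinib against 5.74 under imatinib, and the cytokine OSM had 14.9 FPKM under nilotinib against 5.33 under imatinib. The vehicle levels were 26.7, 28.4 and 40.6 FPKM, so ID1 was above vehicle and SOCS3 and OSM below it in the nilotinib population. CISH (120 FPKM under nilotinib against 83.0 under imatinib), SOCS2 (187 FPKM under nilotinib against 138 under imatinib) and PIM2 (44.0 FPKM under nilotinib against 23.1 under imatinib) were higher, and PIM1 (58.9 FPKM under nilotinib against 64.8 under imatinib) and MCL1 (121 FPKM under nilotinib against 122 under imatinib) level. Beside vehicle the 14 genes had medians of -0.22 in the nilotinib population and -0.78 in the imatinib population.

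MAPK feedback and immediate early genes had 13 higher and 5 lower of 18, with a median of 0.22. Of these 18 genes 2 were at least 2-fold lower, beside 0.711% of all genes. The only members 2-fold apart were lower: FOSL1, an AP-1 subunit, with 27.3 FPKM under nilotinib against 73.0 under imatinib, and PHLDA1 with 5.39 FPKM under nilotinib against 10.8 under imatinib; PHLDA1, at a log2 ratio of -1.001, was under 2-fold apart with the trend on GC content removed (-0.96) and with each pseudocount tried (-0.60 to -0.99). DUSP6, the ERK phosphatase, had 18.2 FPKM under nilotinib against 11.3 under imatinib and EGR1 had 10.1 FPKM under nilotinib against 7.33 under imatinib, beside 44.1 FPKM in vehicle. MYC had 269 FPKM under nilotinib against 193 under imatinib and 127 FPKM in vehicle. Of 30 MYC and ribosome biogenesis genes 19 were higher and 11 lower, none 2-fold (median 0.18), with RRS1 farthest at 20.2 FPKM under nilotinib against 10.4 under imatinib. Of the BCL2 family PMAIP1, the BH3-only protein NOXA, was the 1 of 13 genes 2-fold apart, with 87.9 FPKM under nilotinib against 36.9 under imatinib. Over all genes 3.21% were at least 2-fold apart.

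Sterol genes were lower as a group without reaching 2-fold. Of 24 cholesterol synthesis genes 21 were lower and 3 higher, with a median of -0.47. MVK, INSIG1 and MSMO1 had ratios of -0.97, -0.95 and -0.95. Beside vehicle, 17 of the 24 were lower in the nilotinib population (median -0.32) and 19 higher in the imatinib population (median 0.24). Of 12 fatty acid synthesis genes 10 were lower, with a median of -0.26, and the desaturase SCD had 330 FPKM under nilotinib against 458 under imatinib.

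Proliferation genes were lower by a smaller margin. Of 29 DNA replication genes 26 were lower (median -0.30) and of 28 mitosis genes 25 were lower (median -0.26), none 2-fold. CDT1, which licenses origins, had 62.5 FPKM under nilotinib against 105 under imatinib, MCM4 66.3 FPKM under nilotinib against 102.4 under imatinib and AURKA 30.3 FPKM under nilotinib against 41.9 under imatinib. All 28 mitosis genes in the nilotinib population and 27 in the imatinib population were below vehicle. Cytosolic ribosomal protein genes were nearly level, with 24 of 29 higher, a median of 0.10 and none 2-fold apart. Of 19 endoplasmic reticulum chaperone and quality control genes 13 were higher and 6 lower, with a median of 0.18. The chaperone HSPA5 had 154 FPKM under nilotinib against 156 under imatinib and SDF2L1 had 23.8 FPKM under nilotinib against 14.1 under imatinib. HERPUD1, which serves the degradation of misfolded proteins, was the 1 gene of the set 2-fold higher, with 54.9 FPKM under nilotinib against 24.2 under imatinib. Over all genes 2.5% were at least 2-fold higher.

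**Figure D5:**
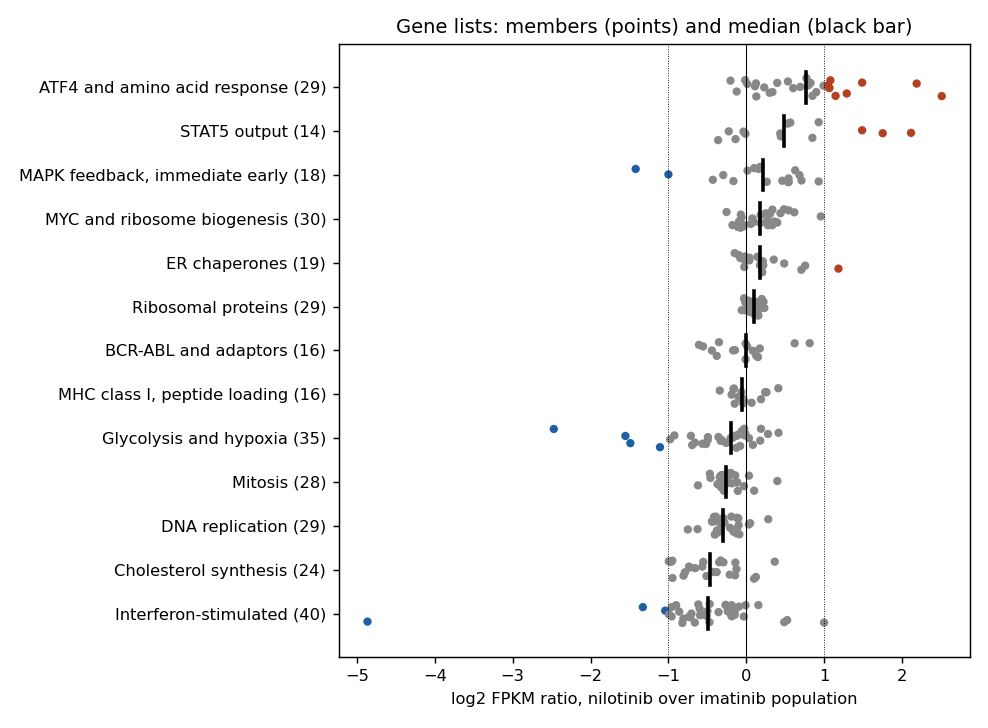
Log2 ratio of FPKM, nilotinib over imatinib population, for members of 13 lists (grey under 2-fold, red at least 2-fold higher, blue at least 2-fold lower), with the number of genes in brackets and a black bar at the median. The amino acid response genes have the highest median (0.77) and the interferon-stimulated genes the lowest (-0.49) of the lists drawn.

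Differentiation and adhesion genes split by member. ITGB2, the shared chain of leukocyte integrins, had 55.5 FPKM under nilotinib against 20.4 under imatinib, and its ligand ICAM1 had 8.31 FPKM under nilotinib against 2.52 under imatinib, while CXCR4 was lower; 7 of 14 adhesion and migration genes were higher and 7 lower. Myeloid surface and cytokine receptor genes were 5 higher and 3 lower of 8 above 5 FPKM. SIGLEC6 had 44.9 FPKM under nilotinib against 12.3 under imatinib and 118 FPKM in vehicle. CD14 had 9.20 FPKM under nilotinib against 4.13 under imatinib, and the granule protease CTSG had 18.4 FPKM under nilotinib against 7.35 under imatinib. Of 8 azurophil granule genes 5 were higher and 3 lower, AZU1 (5.30 FPKM under nilotinib against 7.69 under imatinib) and MGST1 (164 FPKM under nilotinib against 222 under imatinib) among the lower. Megakaryocyte and platelet genes were 6 higher and 2 lower of 8 above 5 FPKM. Platelet glycoproteins GP6 (11.6 FPKM under nilotinib against 4.02 under imatinib) and GP9 (46.4 FPKM under nilotinib against 22.5 under imatinib) were higher. PF4 and ITGA2B were under 1 FPKM in both. Of 5 lymphoid genes above 5 FPKM, CD79A, NKG7, CD79B and CD7 were higher and 1 was lower: CD3D, a T cell receptor chain, had 1.94 FPKM under nilotinib against 5.23 under imatinib and 32.0 FPKM in vehicle. The transferrin receptor TFRC had 12.7 FPKM under nilotinib against 24.9 under imatinib, while iron handling genes were 6 higher and 5 lower of 11. Of 18 genes in the Wnt, Notch and osteogenic list 4 were at least 2-fold higher and 3 at least 2-fold lower. Over all genes the shares were 2.5% higher and 0.711% lower, which also stand beside the counts of the lists that follow here. Higher were ID1, SP7 (12.9 FPKM under nilotinib against 2.33 under imatinib) and LEF1 (11.6 FPKM under nilotinib against 2.81 under imatinib). HES1 was the last of these, with 6.002 FPKM under nilotinib against 2.07 under imatinib. Lower were CDH2, the Notch ligand DLL1 (1.31 FPKM under nilotinib against 6.27 under imatinib) and ID2 (9.34 FPKM under nilotinib against 23.8 under imatinib). Sets named for stress and for sugar storage were close. Of 18 NRF2 and antioxidant genes 11 were higher, with a median of 0.19, and heme oxygenase HMOX1 (6.50 FPKM under nilotinib against 2.34 under imatinib) and SLC7A11 were at least 2-fold higher. Of 18 heat shock chaperones 8 were higher and of 15 glycogen genes 5, none of either set 2-fold apart. Of 12 S100 and annexin genes 8 were higher, and S100A4, S100A6 (99.4 FPKM under nilotinib against 36.9 under imatinib) and ANXA5 (8.12 FPKM under nilotinib against 2.68 under imatinib) were at least 2-fold higher. Of 6 receptor tyrosine kinases above 5 FPKM, 2 were at least 2-fold higher, PTK7 (25.3 FPKM under nilotinib against 11.5 under imatinib) among them. In RNA from a mixed population, fewer cells with a transcript and less of it per cell cannot be told apart.

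The 298 differing genes were also read in the GNF-2 and vehicle populations, which are libraries independent of the selection. Of the genes 2-fold higher in the nilotinib population, 224 were measured in both. In the GNF-2 population 56 (25.0%) of these were at least 2-fold above vehicle, beside 4.44% of all 9239 such genes. Another 23 (10.3%) were at least 2-fold below vehicle, beside 2.93% of all. Of 63 genes 2-fold lower, 23 (36.5%) were at least 2-fold below vehicle in the GNF-2 population, beside 2.93% of all. Another 7 (11.1%) were at least 2-fold above vehicle, beside 4.44% of all. In both sets, both directions thus exceeded the share over all genes. No minimum level was set for the GNF-2 and vehicle libraries, so genes near the floor in them are counted. Examples are GABRA3 (0.147 FPKM in the GNF-2 population against 0.446 in vehicle) and DLL1 (1.88 against 0.602). Of the 232 higher genes, 86 were also in the lowest of the 5 groups by level. The part of low levels in these shares was not tested. The medians of GNF-2 over vehicle were 0.35, -0.51 and 0.09 for the higher genes, the lower genes and all genes. No test was made of these shares. The vehicle level itself lay between the nilotinib and imatinib levels for 132 of the 224 higher genes and 35 of 65 lower genes; above both for 30 and 24, and below both for 62 and 6. Over all 9258 genes with a vehicle level above 0, it lay between them for 2721 (29.4%), above both for 2597 and below both for 3940. The differing genes were picked for a gap of at least 2-fold between the nilotinib and imatinib levels. A vehicle level inside that gap is more frequent by this choice alone, so these counts cannot be compared with those over all genes.

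By the count of genes 2-fold apart, each pair filtered at 5 FPKM in its higher library, the nilotinib and imatinib populations (298 genes) ranked second among 28 pairs of libraries, after the nilotinib and GNF-2 populations (194 genes) and before the imatinib and vehicle populations (304 genes). Pairs of clones differed at 603 to 1173 genes. These pairs share libraries and give no estimate of replicate spread.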

How the data were processed

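Total RNA of the KCL-22 populations and clones was sequenced by the authors, who deposited 1 FPKM value per gene and library. The table's header does not name the unit, which was taken from the tools and from the values. Per the submitters' processing notes, TopHat 1.3, Cufflinks 1.3 and GRCh37 were used; replicates, strand and read counts are not given in the sources used here. Starts in the deposited table count from 0 (917 of 979 miRNA genes then match their hairpin length) and were written counting from 1.

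From these values the ratio of nilotinib over imatinib was computed for entries with an Entrez identifier, at least 5 FPKM in the higher library and above 0 in both. With 1 library a side, sizes are described with no test. Depth was estimated from the smallest step of FPKM times length in 666 intronless genes of 1000 to 8000 bases, and is rough. GC content and length came from GENCODE 29 transcripts, and promoters from RefSeq (GRCh38.p14). Each of 38 gene lists was read by its counts and median, and 37 with at least 3 members entered the alternatives. Named were the 12 largest ratios each way on log2(FPKM + 1) among protein-coding genes at least 2-fold apart, the 8 largest each way at 100 FPKM or more, up to 4 members 2-fold apart each way per list or else the 2 farthest, and ABL1, BCR, ABCB1 and ABCG2; a few genes that these rules name are not reported here, and further list members and the genes under other observations were chosen after their values were seen. The lists and genes were chosen with earlier results of these data known. Symbols held by more than 1 entry were read from the entry with the highest mean. The code that counts genes was checked on simulated data with known changes, which does not measure the error of the counts reported. Python 3.11.15, numpy 2.4.6, pandas 2.3.3 and matplotlib 3.10.9 were used.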

Additional observations from a re-analysis of the deposited data

How the results depend on the processing

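The counts of 298 genes at least 2-fold apart, 232 higher and 66 lower in the nilotinib population, depended on the minimum level and the fold. With at least 1 FPKM in the higher library they were 623, 505 and 118, with at least 10 FPKM 186, 141 and 45, and with no filter 1813, 1398 and 415. A pseudocount of 5 gave 132, 85 and 47. A threshold of 1.5-fold gave 955, 651 and 304, and one of 3-fold 94, 70 and 24. Under quantile normalization 197 were higher and 91 lower, so 68.4% of the differing genes were higher, against 77.9% as reported. The higher genes outnumbered the lower under all 13 alternatives. Over 11 alternatives, 1 of 26 list medians of at least 0.1 in size changed sign: the azurophil granule genes had 0.16 as reported and -0.39 with no filter; the cause was not tested. Of 11 medians under 0.1 in size 6 changed sign under some alternative, the drug transporters the farthest (0.03 as reported, -0.10 with the trend on GC content and length removed). Among the named genes GABRA3 had a log2 ratio of 7.36 as reported and 1.35 with a pseudocount of 5. No paired analysis was possible because each group compared has 1 library, and for the same reason no library could be left out. Without replicates, library preparation and population cannot be told apart for any gene.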

Other observations

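Some genes outside the lists and the naming rule were also at least 2-fold apart; they were picked after their values were seen. Of the integrin chains, 4 picked here were higher in the nilotinib population, ITGA6 with 5.89 FPKM under nilotinib against 1.99 under imatinib, ITGA3 with 7.27 FPKM under nilotinib against 2.59 under imatinib, ITGA7 with 5.94 FPKM under nilotinib against 2.13 under imatinib and ITGB7 with 6.39 FPKM under nilotinib against 2.50 under imatinib. Other chains were lower: ITGA5 had 72.1 FPKM under nilotinib against 103.04 under imatinib, ITGB1 131 FPKM under nilotinib against 142 under imatinib and ITGA4 16.5 FPKM under nilotinib against 17.01 under imatinib. The myeloid transcription factor SPI1 (PU.1) had 18.2 FPKM under nilotinib against 7.497 under imatinib, whereas CEBPE, a factor of late granulocytes, had 23.8 FPKM under nilotinib against 55.5 under imatinib and ZBTB16 (PLZF) 4.397 FPKM under nilotinib against 14.5 under imatinib. The orphan receptors NR4A1 (15.3 FPKM under nilotinib against 4.23 under imatinib) and NR4A2 (8.68 FPKM under nilotinib against 3.71 under imatinib) were both higher. The phosphatase PTPN6 (SHP-1) had 59.2 FPKM under nilotinib against 25.6 under imatinib. MIR210, a hypoxia-induced miRNA gene, had 62.7 FPKM under nilotinib against 18.5 under imatinib, opposite to most genes of the hypoxia list; FPKM of so short an entry does not measure the mature miRNA.

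Differing genes sometimes lay side by side. Of neighbouring genes in the comparison, 22 pairs were both at least 2-fold apart, 14 higher together, 3 lower together and 5 in opposite directions. TMC6 (62.5 FPKM under nilotinib against 16.97 under imatinib) and TMC8 (83.0 FPKM under nilotinib against 23.4 under imatinib) on chromosome 17 overlap. GPRC5C (21.5 FPKM under nilotinib against 4.85 under imatinib), CD300A (71.7 FPKM under nilotinib against 18.3 under imatinib) and RAB37 (42.7 FPKM under nilotinib against 15.2 under imatinib) follow each other on the same chromosome, and S100A6 (99.4 FPKM under nilotinib against 36.9 under imatinib) lies beside S100A4 on chromosome 1.

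Of the 38 genes at 0 in 1 library, 17 were at 0 in the nilotinib population and 21 in the imatinib population. S100A1 had 31.4 FPKM in the nilotinib population and 30.8 FPKM in the GNF-2 population and was listed at 0 in the imatinib population and vehicle. PRG2, an eosinophil granule protein, was listed at 0 in the nilotinib population and had 34.5 FPKM in the imatinib population and 59.3 FPKM in vehicle. DDT was listed at 0 in the nilotinib population, vehicle and Clones 1 and 3 and had 121 FPKM in the imatinib population. The files do not say whether an exact 0 is a failed estimate. A value was missing in 1 or both libraries for 30 entries, MYB, HGF and IKZF1 among them.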
